A study of Homo sapiens with 12 samples.

Results

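The mRNAs of 10 genes of the TGF-beta pathway were followed in A549, a human lung adenocarcinoma cell line. They were the ligands TGFB1 and TGFB2, the receptors TGFBR1, TGFBR2 and TGFBR3, the signal-carrying SMAD2 and SMAD3, the inhibitory SMAD6 and SMAD7, and TGFBI, a secreted matrix protein named for its induction by TGF-beta. The 10 were picked by gene symbol from a table of 58735 gene identifiers, with earlier results of these data known. All 10 passed the filter on low counts that left 17829 genes for testing. GFI1, a zinc-finger repressor of transcription, was introduced into A549 cells with a lentivirus that carries GFP behind a PGK promoter. The 4 groups, of 3 libraries each, were control cells that stayed attached (attached control), GFI1-expressing cells that stayed attached (attached GFI1), and the same pair after 48 hours of enforced suspension (floating control and floating GFI1). All groups grew in RPMI1640 with fetal bovine serum, and the labels do not say whether the control cells received an empty vector. The study asked what GFI1 changes in lung cancer cells that lose their anchorage.

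TGF-beta is made as a latent dimer that is stored in the matrix and released by integrins or proteases. The active ligand binds TGFBR2, which phosphorylates TGFBR1, and TGFBR1 in turn phosphorylates SMAD2 and SMAD3, which enter the nucleus with SMAD4. TGFBR3, also called betaglycan, is a co-receptor that TGFB2 depends on for efficient binding. SMAD6 and SMAD7 restrain the pathway and are themselves induced by it or by its BMP relatives. In epithelial tumors the pathway is known both for growth arrest and for loss of epithelial features.

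The 2 ligands changed in opposite directions with GFI1, and TGFBI is named for its induction by the pathway, so the 250 bases before the RefSeq transcription start of each are printed 5′ to 3′ on the strand of the gene (build GRCh38.p14). They lie at chr19:41353923-41354172 on the minus strand for TGFB1, chr1:218345086-218345335 on the plus strand for TGFB2, and chr5:136028738-136028987 on the plus strand for TGFBI. Capitals mark AATC, the core letters of the GFI1 motif, and CAGAC, a SMAD-binding element, both searched on both strands.
TGFB1: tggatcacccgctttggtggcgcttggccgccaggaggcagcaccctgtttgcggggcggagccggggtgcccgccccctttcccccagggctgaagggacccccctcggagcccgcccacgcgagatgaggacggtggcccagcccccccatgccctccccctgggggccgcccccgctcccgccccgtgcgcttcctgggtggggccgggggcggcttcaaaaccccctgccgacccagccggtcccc
TGFB2: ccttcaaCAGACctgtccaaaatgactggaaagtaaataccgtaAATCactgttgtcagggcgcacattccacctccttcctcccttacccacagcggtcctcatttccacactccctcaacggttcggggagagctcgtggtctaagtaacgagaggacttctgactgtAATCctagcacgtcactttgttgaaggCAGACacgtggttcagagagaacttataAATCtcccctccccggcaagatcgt
TGFBI: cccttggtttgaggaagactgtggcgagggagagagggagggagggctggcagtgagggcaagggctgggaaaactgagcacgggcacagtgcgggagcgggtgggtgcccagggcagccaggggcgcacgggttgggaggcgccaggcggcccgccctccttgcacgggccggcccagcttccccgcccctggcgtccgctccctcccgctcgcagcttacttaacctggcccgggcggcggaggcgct
The TGFB2 window held AATC at 3 places, starting 206, 80 and 25 bases before the start, and CAGAC at 2 places, starting 243 and 53 bases before it. The first AATC was followed by AC, which makes the longer form AATCAC. Neither AATC nor CAGAC was present in the TGFB1 and TGFBI windows. All 10 members had a RefSeq window, several had more than 1, and each of the other 7 held AATC in at least 1 of its windows. Of 34943 RefSeq windows of this length, 64.8% held AATC, 9.02% held AATCAC and 38.0% held CAGAC, so matches are common and are given as a description of these letters only. The windows also differed in base composition, with a GC content of 76.8% for TGFB1, 50.4% for TGFB2 and 72.8% for TGFBI.

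Values per library are CPM (a gene's count as a share of its library total), scaled between libraries by the trimmed mean of M values (TMM), and library totals ran from 17014188 to 20748677 counts. A gene was called when edgeR's quasi-likelihood test gave an adjusted p (Benjamini-Hochberg over all 17829 genes) of 0.05 or less, and a value with ± after a gene is its log2 fold change and SE. GFI1 itself lay between 0.238 and 0.711 CPM in the 6 control libraries. It lay between 286 and 294 CPM in attached GFI1, and at 545, 706 and 430 in floating GFI1. Its level therefore set the GFI1 groups apart from the control groups. It cannot check the attached and floating labels, because the control groups overlapped (0.238 to 0.631 CPM attached, 0.482 to 0.711 floating). A549 enzymes such as ALDH1A1 were high (1807 to 8410 CPM), but their sum was lower with GFI1. The 4 enzymes listed summed to 15124 to 16080 CPM in attached control and 9328 to 9680 in attached GFI1. In suspension the sums were 16824 to 17112 CPM in control and 8389 to 9343 in GFI1 libraries. The epithelial keratins KRT8 (1431 to 5868 CPM) and KRT18 (457 to 2832 CPM) were present throughout. The other epithelial markers were lower, with KRT19 at most 4.43 CPM, EPCAM at most 2.68 and CDH1 at most 122. KRT8 and KRT18 thus carried most of the epithelial sum given below. Of the 5 alveolar type 2 markers, NAPSA was the highest, at 1.74 to 3.75 CPM. NKX2-1 reached at most 1.98 CPM, SFTPC 0.772, SFTPB 0.417 and SFTPA1 0.165. The 5 epithelial markers summed to 8307 to 8822 CPM in attached control, 2478 to 2564 in attached GFI1, 5296 to 5660 in floating control and 1894 to 2196 in floating GFI1. Endothelial markers (3 genes) summed to 0.109 to 0.602 CPM in the control groups and 3.55 to 5.52 in the GFI1 groups, and 6 fibroblast markers to 1.37 to 2.49 and 4.02 to 6.78, with DCN and the blood marker CD3E at 0 counts in every library. These sums rested on few genes. CDH5 reached 4.43 CPM, against at most 0.551 for PECAM1 and 0.958 for VWF. PDGFRB reached 3.64, COL3A1 2.29 and PDGFRA 1.59, against at most 0.165 for LUM and 0.163 for THY1. The part of the marker genes in the differences given here was not tested. The libraries are bulk samples, in which fewer cells of a kind and less RNA per cell cannot be told apart. Nothing in the labels says that replicates came from separate cultures, so p-values measure the spread between these libraries, which may be technical.

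Expression of GFI1 in attached cells went with a higher TGFB1 mRNA and with lower TGFB2, TGFBR1, TGFBR3, SMAD2, SMAD3, SMAD6 and TGFBI mRNAs, while SMAD7 was higher. Thus 2 of the 10 genes rose, 7 fell and 1, TGFBR2, did not pass the test. Among all genes tested, 62.3% were called in this comparison, 29.5% higher and 32.8% lower. In floating cells 2 members rose, 6 fell and 2 did not pass, beside 60.4% of all genes called, 29.3% higher and 31.1% lower. The median log2 fold change of the members was -0.319 in attached and -0.239 in floating cells, against -0.007 and 0.011 over all genes. With library sizes alone in place of TMM, the median of all genes moved to 0.14 in both states and the share of calls that were higher from 47.4% to 61.5% (attached) and from 48.5% to 61.4% (floating). Calls or directions with GFI1 that this choice changes are given with SMAD2, SMAD3, SMAD6 and TGFBR2.

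**Figure D1:**
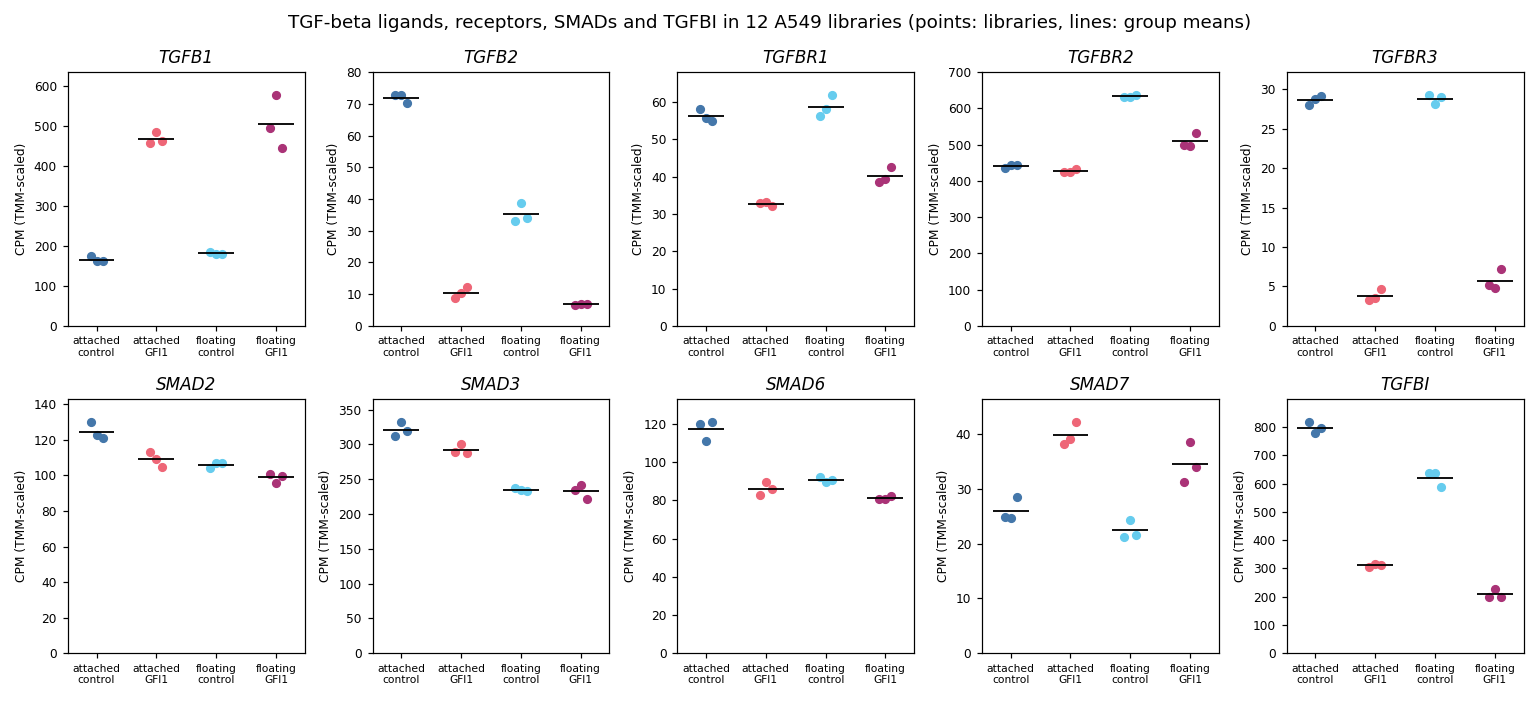
CPM of each member in the 12 libraries, 1 panel per gene with its own axis from 0; points are libraries and lines are the means of 3. TGFB1 lies at 161 to 186 CPM in the control libraries and at 444 to 578 in the GFI1 libraries, and TGFB2 at 33.2 to 72.9 and 6.62 to 12.2.

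TGFB1 (chr19:41301587-41353922, minus strand) encodes the isoform that most cells secrete. It measured 174, 161 and 161 CPM in the attached control libraries, 457, 485 and 463 in attached GFI1, 186, 180 and 180 in floating control, and 494, 578 and 444 in floating GFI1. All 6 GFI1 libraries lay above all 6 control libraries, and the 2 GFI1 groups overlapped. The log2 fold change with GFI1 was 1.51 ± 0.06 in attached cells (2.84-fold; adjusted p = 1.21e-16) and 1.47 ± 0.06 after suspension (2.77-fold; adjusted p = 1.78e-16). Suspension gave 0.14 ± 0.06 in control cells (adjusted p = 0.0829) and 0.11 ± 0.06 in GFI1 cells (adjusted p = 0.194), and neither passed the test. The first passed with library sizes alone, upper quartile scaling, no filter on low counts or only the compared groups (adjusted p between 0.00252 and 0.0443), and the second turned to -0.01 without floating GFI1 replicate 2 and to 0.19 (adjusted p = 0.00362) without replicate 3. In floating GFI1 cells the library with 706 CPM of GFI1 had 578 CPM of TGFB1, that with 545 had 494 and that with 430 had 444, and the part of the GFI1 level in this spread was not tested. TGFB1 shares 215 exonic bases with HNRNPUL1 on the opposite strand, and whether counting used strand was not stated. HNRNPUL1 averaged 12177.7 counts per library, against 6184.2 for TGFB1. Its log2 fold change with GFI1 was -0.23 ± 0.04 in attached cells (adjusted p = 1.59e-05). In floating cells it was -0.08 ± 0.04 and did not pass (adjusted p = 0.0869). The part of the shared bases in the TGFB1 values was not tested.

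TGFB2 (chr1:218345336-218444619, plus strand) encodes the isoform that needs the co-receptor for efficient binding. Its values were 72.8, 72.9 and 70.5 CPM in attached control, 8.90, 10.2 and 12.2 in attached GFI1, 33.2, 38.8 and 34.1 in floating control, and 6.62, 6.89 and 6.86 in floating GFI1. No 2 groups overlapped, and the order ran from attached control through floating control and attached GFI1 down to floating GFI1. GFI1 lowered TGFB2, at -2.78 ± 0.08 on the log2 scale in attached cells (6.89-fold; adjusted p = 4.05e-20) and at -2.38 ± 0.09 after suspension (5.20-fold; adjusted p = 1.94e-17). Suspension also lowered it, at -1.03 ± 0.07 in control cells (adjusted p = 1.15e-11) and -0.62 ± 0.11 in GFI1 cells (adjusted p = 6.13e-05). The antisense transcript TGFB2-AS1 shares 701 exonic bases with TGFB2 and averaged 52.6 counts per library, against 550.3 for TGFB2. It fell with GFI1 as well, at -3.77 ± 0.26 in attached and -3.39 ± 0.33 after suspension (adjusted p = 1.97e-12 and 2.24e-09), and counts of the shared bases cannot be assigned to 1 strand.

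The opposite changes of the ligands altered the balance between them. Per kilobase of exon, TGFB2 made up 18.3%, 19.5% and 19.0% of the 3 TGF-beta ligands in attached control and 1.04%, 1.12% and 1.39% in attached GFI1. In suspension the share was 8.75%, 10.3% and 9.20% in control and 0.715%, 0.637% and 0.823% in GFI1 libraries. The ratio of TGFB1 to TGFB2 per kilobase was 4.24 ± 0.167 (SD, n = 3) in attached control, 84.6 ± 12.6 in attached GFI1, 9.59 ± 0.886 in floating control and 138 ± 17.8 in floating GFI1, with no overlap between groups. With the canonical transcript length (chosen after seeing the data) the mean ratios were 4.83, 96.4, 10.9 and 157 in the same order of groups. The summed level of the ligands rose from 62.9 ± 2.45 CPM per kilobase in attached control to 146 ± 4.61 in attached GFI1, and was 62.0 ± 0.697 in floating control and 157 ± 20.7 in floating GFI1. TGFB3, the remaining isoform and no member of the 10, stayed between 0.337% and 0.832% of the ligands.

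**Figure D2:**
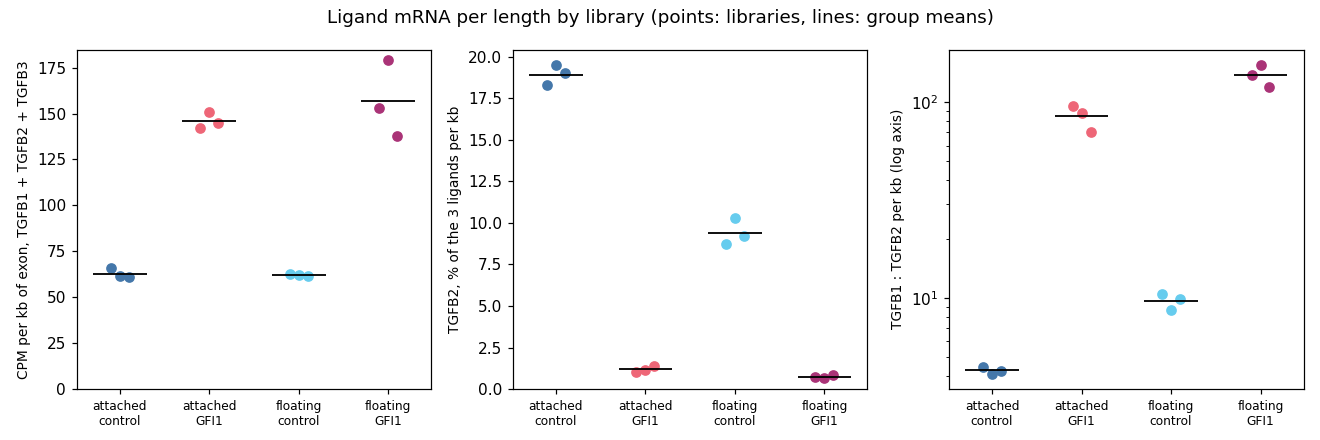
Summed ligand level in CPM per kilobase of exon, share of TGFB2 in percent and the TGFB1 to TGFB2 ratio on a log axis, by group; points are libraries and lines are the means of 3. The summed level lies at 138 to 179 in the GFI1 libraries and at 61.2 to 65.7 in the control libraries, and the TGFB2 share at 0.637% to 1.39% and 8.75% to 19.5%.

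Among the 3 receptors of the set, TGFBR3 fell most with GFI1. TGFBR3 (chr1:91680343-91906335, minus strand) measured 28.0, 28.8 and 29.2 CPM in attached control, 3.27, 3.51 and 4.61 in attached GFI1, 29.3, 28.2 and 29.0 in floating control, and 5.13, 4.85 and 7.16 in floating GFI1. The control groups overlapped each other, and each GFI1 library lay far below them. Its log2 fold change with GFI1 was -2.91 ± 0.12 in attached cells (7.52-fold lower; adjusted p = 4.09e-17) and -2.32 ± 0.11 after suspension (5.01-fold lower; adjusted p = 1.31e-15). Suspension left it at 0.01 ± 0.09 in control cells, with a 95% interval from -0.18 to 0.19, and raised it by 0.60 ± 0.15 in GFI1 cells (adjusted p = 0.00245).

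TGFBR1 (chr9:99104038-99154192, plus strand), the kinase that phosphorylates SMAD2 and SMAD3, fell less. Its values were 58.0, 55.7 and 54.8 CPM in attached control, 33.0, 33.2 and 32.1 in attached GFI1, 56.2, 58.1 and 61.9 in floating control, and 38.6, 39.3 and 42.6 in floating GFI1. Both GFI1 groups lay below both control groups, which overlapped each other. The changes with GFI1 were -0.78 ± 0.06 with adhesion and -0.55 ± 0.05 without it (adjusted p = 5.23e-12 and 2.84e-09). With suspension TGFBR1 rose by 0.29 ± 0.06 in GFI1 cells (adjusted p = 0.000237), while in control cells the difference was 0.07 ± 0.05 (adjusted p = 0.359).

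TGFBR2 (chr3:30606601-30694142, plus strand), the receptor that binds ligand first, varied with suspension more than with GFI1. It measured 435, 445 and 443 CPM in attached control, 424, 425 and 432 in attached GFI1, 631, 631 and 637 in floating control, and 499, 495 and 533 in floating GFI1. The floating libraries were higher than the attached ones, and floating control was the highest group. Suspension raised TGFBR2 by 0.52 ± 0.04 in control cells (1.44-fold; adjusted p = 8.43e-11) and by 0.25 ± 0.04 in GFI1 cells (1.19-fold; adjusted p = 1.75e-05). GFI1 lowered it, at -0.31 ± 0.04 after suspension (adjusted p = 1.64e-07). In attached cells the difference was -0.05 ± 0.04, with a 95% interval from -0.13 to 0.04, and with library sizes alone it turned to 0.10 (adjusted p = 0.0311).

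Per kilobase of exon, the receptors stood in the order TGFBR2, TGFBR1, TGFBR3 in every group. TGFBR2 exceeded TGFBR1 9.16 ± 0.372 times (SD, n = 3) in attached control, 15.2 ± 0.445 times in attached GFI1, 12.6 ± 0.553 times in floating control and 14.8 ± 0.252 times in floating GFI1. The SDs do not cover the choice of length. With the canonical transcript length (chosen after seeing the data) these ratios were 11.3, 18.7, 15.5 and 18.2. TGFBR3 made up 4.47% ± 0.0582 of the 3 receptors in attached control and 0.661% ± 0.117 in attached GFI1, and 3.26% ± 0.0693 and 0.829% ± 0.145 in the floating groups.

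The signal-carrying SMADs changed little. SMAD2 (chr18:47808957-47931146, minus strand) lay at 121 to 130 CPM in attached control, 105 to 113 in attached GFI1, 104 to 107 in floating control and 95.9 to 101 in floating GFI1. The attached control libraries were the highest. With GFI1 the log2 fold change was -0.20 ± 0.04 in attached cells (adjusted p = 0.000348) and -0.10 ± 0.04 after suspension (adjusted p = 0.0543); with library sizes alone these became -0.05 (adjusted p = 0.328) and 0.03 (adjusted p = 0.587). Suspension lowered SMAD2, at -0.24 ± 0.04 in control cells (adjusted p = 0.000103) and -0.14 ± 0.04 in GFI1 cells (adjusted p = 0.0171). The call in GFI1 cells was lost without attached GFI1 replicate 1 or 2 (adjusted p = 0.107 and 0.0559) and with no filter on low counts (adjusted p = 0.0674).

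SMAD3 (chr15:67063763-67195173, plus strand), the partner that binds DNA directly, followed suspension. It lay at 312 to 332 CPM in attached control, 287 to 300 in attached GFI1, 233 to 238 in floating control and 222 to 241 in floating GFI1. Each attached library exceeded each floating one. Suspension lowered SMAD3, at -0.45 ± 0.04 in control cells (1.37-fold; adjusted p = 3.50e-09) and at -0.33 ± 0.04 in GFI1 cells (1.26-fold; adjusted p = 1.11e-06). GFI1 gave -0.14 ± 0.04 in attached cells (adjusted p = 0.00598) and -0.02 ± 0.04 after suspension (adjusted p = 0.780), and with library sizes alone these turned to 0.01 (adjusted p = 0.858) and 0.11 (adjusted p = 0.0206). An unnamed antisense RNA that shares 182 exonic bases with SMAD3 averaged 10.5 counts, against 4948.4 for SMAD3.

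The inhibitory SMADs moved in opposite directions with GFI1. SMAD7 (chr18:48919853-48950965, minus strand), which competes for TGFBR1 and recruits ubiquitin ligases to it, measured 24.8, 24.7 and 28.6 CPM in attached control, 38.3, 39.2 and 42.2 in attached GFI1, 21.3, 24.4 and 21.6 in floating control, and 31.3, 38.5 and 34.0 in floating GFI1. All GFI1 libraries were above all control libraries. SMAD7 rose with GFI1 by 0.62 ± 0.08 in attached cells (1.53-fold; adjusted p = 1.49e-07) and 0.63 ± 0.08 after suspension (1.54-fold; adjusted p = 2.27e-07). With suspension it was lower, at -0.22 ± 0.08 in control and -0.21 ± 0.07 in GFI1 cells (adjusted p = 0.0418 and 0.0368). These calls are close to the threshold, and without attached control replicate 3, or floating control replicate 1 or 3, the first had an adjusted p between 0.131 and 0.231, while the second had one between 0.0669 and 0.176 without attached GFI1 replicate 2 or 3, or floating GFI1 replicate 1 or 3.

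SMAD6 (chr15:66702236-66782849, plus strand), the inhibitor best known from BMP signaling, measured 120, 111 and 121 CPM in attached control, 82.9 to 89.7 in attached GFI1, 92.1, 89.6 and 90.6 in floating control, and 80.6, 80.5 and 82.1 in floating GFI1. Attached control stood above the other groups, of which attached GFI1 and floating control overlapped. GFI1 lowered SMAD6, at -0.44 ± 0.04 in attached cells (adjusted p = 4.51e-09) and at -0.16 ± 0.05 after suspension (adjusted p = 0.00362), the latter being -0.03 (adjusted p = 0.548) with library sizes alone. Suspension lowered it, at -0.37 ± 0.05 in control cells (adjusted p = 3.31e-07), and in GFI1 cells the difference was -0.09 ± 0.05 (adjusted p = 0.150). Per kilobase of exon, the ratio of SMAD7 to SMAD6 was 0.482 ± 0.0319 (SD, n = 3) in attached control, 1.00 ± 0.0571 in attached GFI1, 0.536 ± 0.047 in floating control and 0.926 ± 0.101 in floating GFI1. These ratios depend on the length used, and with the canonical transcript (chosen after seeing the data) they were 0.255, 0.531, 0.283 and 0.489, again higher in the GFI1 groups.

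TGFBI (chr5:136028988-136063818, plus strand) fell both with GFI1 and with suspension. It measured 817, 778 and 795 CPM in attached control, 306, 316 and 312 in attached GFI1, 636, 638 and 587 in floating control, and 200, 228 and 199 in floating GFI1. The groups did not overlap, and floating GFI1 was the lowest. With GFI1 the change was -1.35 ± 0.05 in attached cells (2.56-fold lower; adjusted p = 5.02e-18) and -1.57 ± 0.05 after suspension (2.97-fold lower; adjusted p = 3.49e-19). With suspension it was -0.36 ± 0.05 in control cells (adjusted p = 1.12e-06) and -0.57 ± 0.05 in GFI1 cells (adjusted p = 1.87e-09).

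**Figure D3:**
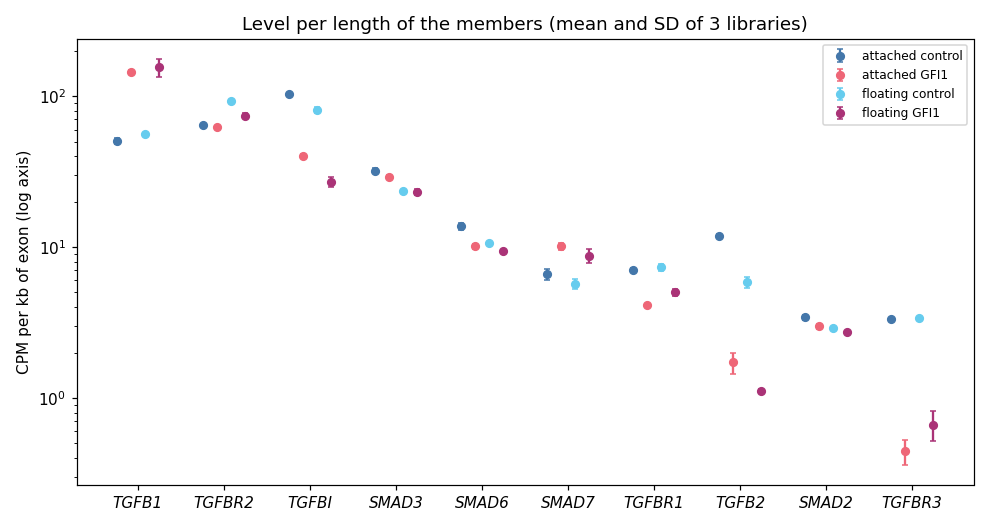
Mean CPM per kilobase of exon of each member by group, on a log axis, with the SD of 3 libraries as bars; genes are ordered by their mean over the groups. TGFB1 ranges from 50.6 in attached control to 155 in floating GFI1, and TGFBI from 103 down to 27.1.

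Levels of different genes were compared per kilobase of exon. In attached control TGFBI stood highest at 103 ± 2.50 CPM per kilobase (SD, n = 3), followed by TGFBR2 at 64.3 ± 0.790 and TGFB1 at 50.6 ± 2.27. In attached GFI1 the first place went to TGFB1 at 144 ± 4.56, with TGFBR2 at 62.3 ± 0.676 and TGFBI at 40.4 ± 0.668. SMAD3 exceeded SMAD2 in every group, at 32.1 ± 1.06 against 3.43 ± 0.127 in attached control. The low value of SMAD2 goes with an exon length of 36426 bases in the annotation, the longest of the members. With the length of the canonical transcript instead, 43 of 45 pairs of members kept their order, and TGFBI then stood above TGFB1 and TGFBR2 in the mean over groups.

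Suspension called 7 members in control cells, 1 higher (TGFBR2) and 6 lower (TGFB2, SMAD2, SMAD3, SMAD6, SMAD7 and TGFBI). All genes tested were called in 40.1% of cases, 19.6% higher and 20.5% lower. In GFI1 cells 3 members rose, namely the 3 receptors, and 5 fell (TGFB2, SMAD2, SMAD3, SMAD7 and TGFBI), beside 31.3% of all genes called, 15.0% higher and 16.3% lower. Both comparisons share groups with those of GFI1, so their values are given side by side and are not independent of them. The median of the members was -0.226 in control and -0.114 in GFI1 cells, against 0.011 and 0.002 over all genes.

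**Figure D4:**
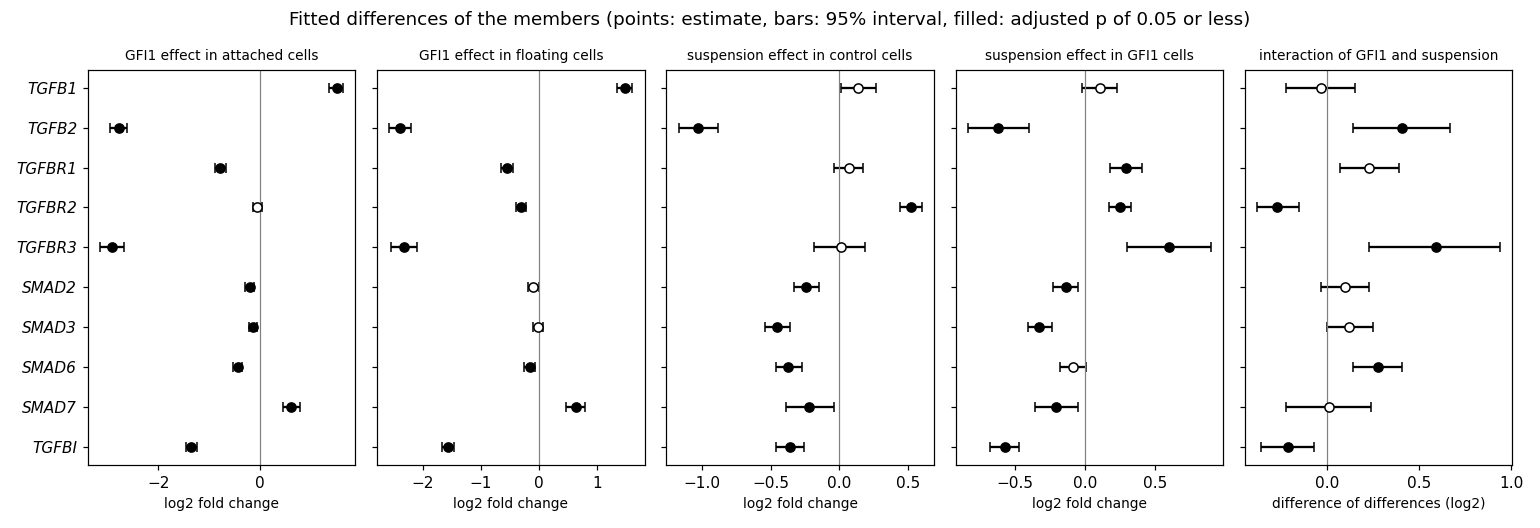
Log2 fold change of each member in the 4 comparisons, and the difference between the GFI1 effects in floating and attached cells; points are estimates, bars are 95% intervals, and filled points have an adjusted p of 0.05 or less by edgeR's quasi-likelihood test. TGFB2 and TGFBR3 lie between -2.32 and -2.91 with GFI1, and TGFB1 at 1.51 and 1.47.

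The interaction term asks whether the GFI1 effect differed between floating and attached cells. It was called for 5 members, 3 with a more positive effect in floating cells and 2 with a more negative one, whereas 10.8% of all genes were called, 4.76% higher and 6.01% lower. The effect on SMAD6 was smaller in floating cells (difference 0.28 ± 0.06; adjusted p = 0.00514), and that on TGFBR2 more negative (-0.27 ± 0.06; adjusted p = 0.00191). Both were called whichever library was left out. The differences for TGFBR3 (0.59 ± 0.17; adjusted p = 0.0264), TGFB2 (0.41 ± 0.13; adjusted p = 0.0432) and TGFBI (-0.21 ± 0.07; adjusted p = 0.0474) lost their call in 5, 10 and 9 of the 12 libraries left out. For TGFB1 the interaction was -0.03 ± 0.09, with a 95% interval from -0.22 to 0.15, and for SMAD7 it was 0.01 ± 0.11, from -0.22 to 0.24.

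The other genes of the pathway were listed by role, 86 in all, of which 80 passed the filter. The lists, like the members, were chosen with earlier results of these data known, so their counts and medians beside all genes are a description only. With GFI1, 26 rose and 43 fell in attached cells, and 24 rose and 42 fell in floating cells. Over all genes tested, 29.5% rose and 32.8% fell in attached cells, and 29.3% rose and 31.1% fell in floating cells, which is the background for each list that follows. Of the 16 genes for ligand production and latency, 7 rose and 5 fell (LTBP2, LTBP4, LRRC32, ITGB6 and ITGB8) in attached cells, and 5 rose (TGFB3, LTBP3, FURIN, INHBA and GDF11) and 8 fell in floating cells. LTBP3, which tethers latent TGF-beta to the matrix, rose by 1.56 ± 0.04 (adjusted p = 2.89e-20) and 1.48 ± 0.04 (adjusted p = 8.17e-20), from a mean of 291 to 859 CPM and from 354 to 987. Its relative LTBP4 fell, at -2.10 ± 0.05 (adjusted p = 4.35e-22) and -1.78 ± 0.05 (adjusted p = 1.75e-20). ITGB6, the beta chain of an integrin that activates latent TGF-beta, fell, at -3.90 ± 0.21 in attached cells (adjusted p = 2.74e-14) and -3.02 ± 0.29 after suspension (adjusted p = 1.54e-09), from means of 8.90 and 2.65 CPM.

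Of the 9 other receptors and co-receptors tested, 0 rose by edgeR's test (0 also at an unadjusted p under 0.05 and 0 by DESeq2), 8 fell and 1, ACVR2B (named after its value was seen), did not pass in attached cells, and the counts were the same in floating cells, beside 32.8% and 31.1% of all genes lower. The median log2 fold change was -0.70 and -0.722, also with ACVRL1 at its bound. The call of ENG was lost in 4 of 6 attached and 3 of 6 floating cases with a library left out. BMPR1B, a BMP receptor, fell, at -1.30 ± 0.06 (adjusted p = 3.82e-15) and -1.52 ± 0.06 (adjusted p = 1.41e-16), and ACVR1, an activin and BMP receptor, at -1.65 ± 0.10 and -1.52 ± 0.10. ACVRL1 had 2, 8 and 12 counts in attached control, 21, 23 and 19 in floating control and 0 in all GFI1 libraries. Taking 3 counts in a library as the limit that a count of 0 allows, ACVRL1 with GFI1 was at least 2.45-fold below the attached control mean. After suspension it was at least 7.47-fold below the floating control mean. Attached control replicate 1, with 2 counts, was itself below that limit.

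The 9 other SMADs and partners had median log2 fold changes of -0.092 in attached and -0.056 in floating cells. In attached cells 5 were called and in floating cells 6, beside 62.3% and 60.4% of all genes, so the shares were near the background. In attached cells SMAD4, the shared partner, and EP300, a coactivator, rose, while SMAD1, SMAD5 and ZFYVE9 fell. In floating cells SMAD4, EP300 and TRIM33 rose and SMAD5, SMAD9 and ZFYVE9 fell; several of these names were chosen after their values were seen. When 1 of the 6 libraries compared was left out, the calls of SMAD1 and ZFYVE9 in attached and TRIM33 in floating cells were each lost in 4 cases (down to -0.17, -0.12 and 0.10), and that of SMAD4 in attached cells in 1 (0.14 without attached GFI1 replicate 1). SMAD9, a SMAD of the BMP branch, had the largest change of the list, at -1.60 ± 0.42 in floating cells (3.02-fold lower; adjusted p = 0.00212), on 13, 20 and 20 counts in floating control and 4, 11 and 4 in floating GFI1. Floating control was the group that stood apart, with a mean of 1.04 CPM. The means were 0.301 in attached control, 0.39 in attached GFI1 and 0.342 in floating GFI1. Suspension raised SMAD9 by 1.75 ± 0.44 in control cells (adjusted p = 0.00225). EP300 gave 0.22 ± 0.05 and 0.23 ± 0.05 (adjusted p = 0.00029 and 0.000188), and SMAD5 -0.24 ± 0.05 and -0.23 ± 0.05 (adjusted p = 0.000112 and 0.000265). Of 13 negative regulators, 4 rose (SKI, SKIL, TGIF1 and PPM1A) and 8 fell in attached cells, and 3 rose (SKI, PMEPA1 and PPM1A) and 7 fell in floating cells, some of these names again being chosen after their values were seen, beside the same background. TGIF1 lost its call in 4 of 6 cases with a library left out, down to 0.06, and PMEPA1 rose by 0.17 instead of 0.40 without floating GFI1 replicate 2. NEDD4L, a ubiquitin ligase that acts on SMAD2 and SMAD3, fell, at -2.79 ± 0.07 (adjusted p = 5.29e-22) and -2.56 ± 0.07 (adjusted p = 6.60e-21), from 89.9 to 13.0 and from 72.4 to 12.3 CPM. SKI, a corepressor of SMAD complexes, rose by 0.65 ± 0.05 (adjusted p = 1.58e-11) and 0.76 ± 0.05 (adjusted p = 9.28e-13).

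Genes known to be induced by TGF-beta went both ways. Of 23 tested, 12 rose and 11 fell in attached cells, and 12 rose and 8 fell in floating cells, beside 29.5% of all genes higher and 32.8% lower in attached and 29.3% and 31.1% in floating cells. The medians were 0.10 and 0.29. Some attached calls were lost when 1 of the 6 libraries compared was left out, and these genes are named for that reason. The calls of COL5A1, ACTA2 and MMP2 were lost in 4 cases each, those of TGFB1I1, CDKN1A and BHLHE40 in 2 and that of TAGLN in 1. SNAI1, a repressor of epithelial genes, rose by 1.89 ± 0.15 in attached cells and 2.58 ± 0.16 after suspension (adjusted p = 3.47e-11 and 2.64e-13), and JUNB by 1.51 ± 0.06 and 0.82 ± 0.06. SNAI2, of the same list, fell, at -2.72 ± 0.49 and -2.44 ± 0.57 (adjusted p = 3.39e-05 and 0.000618). It had only 4, 7 and 0 counts in attached GFI1 and 2, 4 and 2 in floating GFI1. The matrix genes COL4A1 and FN1 fell, COL4A1 at -2.52 ± 0.05 and -2.07 ± 0.05 and FN1, fibronectin, at -1.20 ± 0.04 and -1.85 ± 0.05. COL5A1, another matrix gene, went the other way, by 0.1 in attached cells and 1.05 ± 0.04 in floating cells (adjusted p = 7.14e-17 in the latter). VIM, the mesenchymal filament protein vimentin, fell, at -3.09 ± 0.11 and -2.17 ± 0.10 (adjusted p = 3.69e-18 and 1.88e-15).

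Of the 10 genes of the BMP branch, 1 rose and 8 fell with GFI1 in both states, beside 32.8% and 31.1% of all genes lower, and the medians were -1.634 and -2.227. The gene that rose was NOG, the BMP antagonist noggin, by 1.80 ± 0.27 and 1.31 ± 0.26 from means below 1 CPM. BMP4, a BMP ligand, fell, at -3.97 ± 0.11 (adjusted p = 1.55e-20) and -3.96 ± 0.11 (adjusted p = 1.32e-20), from 39.9 to 2.55 and from 43.6 to 2.79 CPM. ID3, a direct target of BMP signaling, fell, at -1.96 ± 0.06 (adjusted p = 1.21e-19) and -2.68 ± 0.06 (adjusted p = 3.85e-22). GREM1 had 1 count in each attached GFI1 library, so no fold is given.

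**Figure D5:**
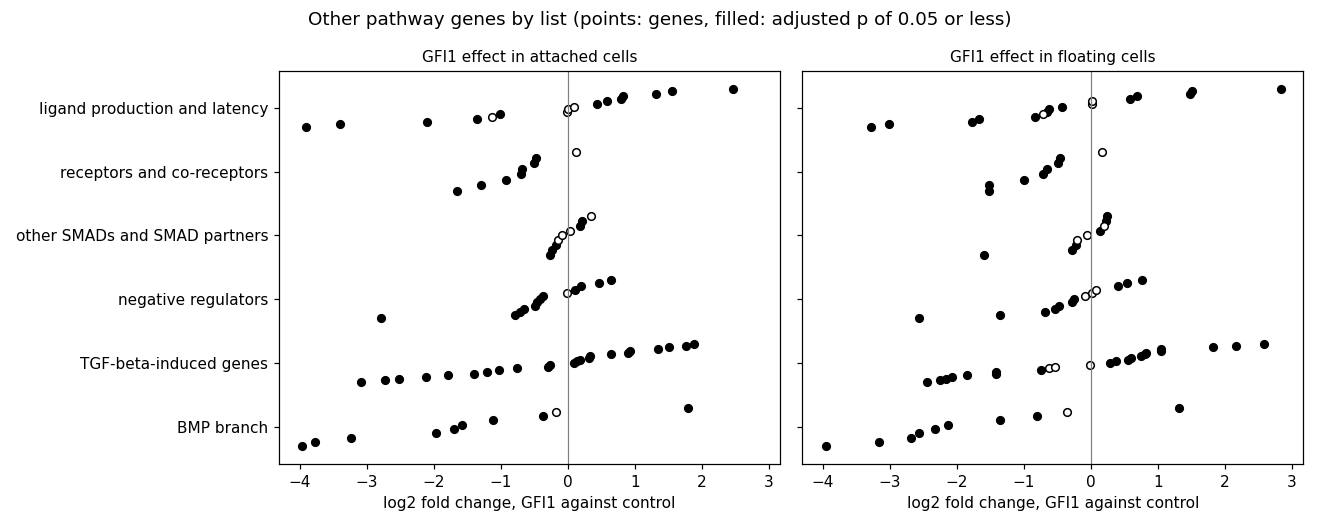
Log2 fold change with GFI1 of the pathway genes tested, by list, in attached cells (left) and floating cells (right); each point is a gene, filled where the adjusted p is 0.05 or less, and ACVRL1 is left out because it had 0 counts with GFI1. Of the 8 receptors drawn, all but ACVR2B lie below 0, and the induced genes lie on both sides.

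With suspension, 23 of the 80 pathway genes rose and 19 fell in control cells, and 20 rose and 15 fell in GFI1 cells. Over all genes, 19.6% rose and 20.5% fell in control cells, and 15.0% rose and 16.3% fell in GFI1 cells. FURIN, a protease that cleaves the TGF-beta precursor, rose by 0.55 ± 0.05 (adjusted p = 5.00e-10) and 0.34 ± 0.04 (adjusted p = 1.48e-06). INHBB, an activin subunit, fell, at -0.70 ± 0.06 and -1.32 ± 0.06 (adjusted p = 3.36e-10 and 1.27e-14). FN1 rose by 1.38 ± 0.04 and 0.73 ± 0.04 (adjusted p = 8.02e-18 and 3.69e-12). COL5A1, a fibrillar collagen gene, fell, at -1.76 ± 0.04 (adjusted p = 5.94e-20) in control cells and at -0.81 in GFI1 cells. TPM1, an actin-binding tropomyosin, fell alike in both, at -1.52 ± 0.04 in control and -1.51 ± 0.04 in GFI1 cells (adjusted p = 1.33e-19 and 2.35e-18). ACVR2B rose by 0.40 ± 0.09 and 0.43 ± 0.08 (adjusted p = 0.000675 and 0.000293), and BAMBI, a decoy receptor, by 0.66 ± 0.06 in control cells (adjusted p = 2.35e-09). ID4 rose by 1.85 ± 0.13 in control cells (adjusted p = 2.97e-11).

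Across the 12 libraries the protein-coding genes most like each member in log2 CPM, of 11886 searched, were read off by Pearson's r, as a description of libraries that share groups. For TGFB1 they were HPCAL1 and F11R (both 0.995), and for TGFB2 PLCE1 and KRT18 (both 0.996). TGFBR3 lay nearest to FST (0.997), which encodes the activin antagonist follistatin, and GPRIN3 (0.996). TGFBR1 lay nearest to UGDH (0.994) and DPYSL3 (0.991), and TGFBR2 to STRA6 (0.985) and WWP1 (0.984), a ubiquitin ligase. For SMAD2 the genes were GMPS (0.977) and CKS1B (0.973), for SMAD3 DOCK5 and WARS (both 0.982), for SMAD6 CENPB (0.991) and GTF3A (0.983), and for SMAD7 the nearest was EHD1 (0.977). TGFBI lay nearest to KARS (0.998) and TMSB4X (0.997).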

How the data were processed

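Libraries of poly-A selected RNA from A549 cells were sequenced on an Illumina NovaSeq system. The deposited values are raw counts per gene that the authors made. Their methods name Hisat2 and featureCounts and the submitters' processing notes name Bowtie2 and HTSeq, on hg38, and strandedness was not stated. The table also holds a gene length column, used only as an alternative. Exon lengths and positions came from GENCODE v44, which held 99.1% of the identifiers. Groups were taken from the labels. Genes passed filterByExpr (minimum count 10, total 15), libraries were scaled by TMM, and edgeR 4.0.16 (R 4.3.3) fitted 1 quasi-likelihood model with 4 group means and 4 contrasts plus their interaction, with Benjamini-Hochberg adjustment over 17829 genes. CPM used TMM-scaled library sizes. The script was tested on simulated data. DESeq2 1.42.0, other scalings and filters, a replicate block, a 2-fold threshold and leaving out each library were alternatives. All members were described. Of each pathway list, the gene with the lowest adjusted p per direction and comparison was named, and genes past 2-fold could be. GFI1 was named, and the 2 genes nearest to each member in pattern (mean log2 CPM at least 1). Results on some of the genes these rules pick are not reported here. The members and lists were chosen with earlier results of these data known.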

Additional observations from a re-analysis of the deposited data

Results flagged for a closer look

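The GFI1 effect differed between floating and attached cells, by the interaction term of edgeR's quasi-likelihood model, for 5 members. The differences in log2 fold change were 0.41 for TGFB2, -0.27 for TGFBR2, 0.59 for TGFBR3, 0.28 for SMAD6 and -0.21 for TGFBI. Of these, TGFB2, TGFBR3 and TGFBI lost the call when single libraries were left out.

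Among the other pathway genes named for this term, the difference was positive for PMEPA1 (1.11), COL5A1 (0.95), FST (0.67) and LTBP4 (0.32). PMEPA1, an inhibitor that the pathway induces, had a log2 fold change with GFI1 of -0.71 ± 0.11 in attached and 0.40 ± 0.10 in floating cells. The floating value rested largely on 1 library, since floating GFI1 measured 425, 582 and 340 CPM against 310 to 360 in floating control, and without replicate 2 of floating GFI1 it was 0.17 (adjusted p = 0.0146). The difference between the states was 0.86 to 1.27 with any 1 library left out, and called in each case. The difference for FST lost its call in 3 of 12 such cases. The difference was negative for ID4 (-1.47), THBS1 (-1.24), ID2 (-1.20), MMP2 (-1.11), FN1 (-0.65) and BAMBI (-0.58). THBS1, a matrix protein that can activate latent TGF-beta, rose by 0.58 ± 0.06 with GFI1 in attached cells and fell, at -0.66 ± 0.06 in floating cells. No group had enough libraries for a search for single outlying values.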

How the results depend on the processing

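Of 750 recalculated log2 fold changes of the members, 678 kept their direction and their side of the threshold, 45 kept the direction but lost the call, 6 gained it and 21 changed sign. The largest difference to change sign was -0.14, that of SMAD3 with GFI1 in attached cells. Requiring a 2-fold change as well reduced the genes called with GFI1 to 3247 in attached and 3078 in floating cells, those called with suspension to 909 in control and 500 in GFI1 cells, and those with an interaction to 241. The members called were then 4, 4, 1, 0 and 0, and the pathway genes called 32, 33, 12, 9 and 6. In the last pair of comparisons, 0 members reached 2-fold at any p.

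With library sizes alone, the GFI1 effect turned to 0.10 for TGFBR2 and 0.01 for SMAD3 in attached cells, and to 0.03 for SMAD2 and 0.11 for SMAD3 in floating cells. Upper quartile scaling gave 0.01 for TGFBR2 in attached and 0.03 for SMAD3 in floating cells, and at least 10 counts in every library gave 0.004 for the latter. TGFBR3 with suspension in control cells was -0.0013 without a filter on low counts. The SMAD7 interaction was -0.0011 with DESeq2, -0.0013 with RLE size factors and -0.01 with library sizes alone. The TGFB2 interaction missed the threshold with RLE size factors and with library sizes alone (adjusted p = 0.0506 and 0.0554). SMAD7 with suspension in control cells missed it under 5 alternatives other than left-out libraries (adjusted p from just above 0.05 to 0.068), and the SMAD3 loss with GFI1 in attached cells under upper quartile scaling (adjusted p = 0.0779). The cause was not tested in these cases.

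Leaving out 1 library at a time left 2 to 5 members with an interaction. The values ranged from -0.03 to 0.02 for SMAD3 with GFI1 in floating cells, from -0.01 to 0.02 for TGFBR3 with suspension in control cells, from -0.01 to 0.19 for TGFB1 with suspension in GFI1 cells, and from -0.16 to 0.05 and -0.09 to 0.07 for the interactions of TGFB1 and SMAD7. Without floating control replicate 3, the TGFBR1 interaction passed (0.27; adjusted p = 0.0375). Same-numbered libraries of different groups did not deviate together over all genes tested (correlations from -0.031 to 0.031). This gave no sign of pairing by number, but a pairing that touches few genes could go unseen in it. A fit with a replicate block called 11054, 10713, 7110, 5546 and 1904 genes in the 5 comparisons and changed no call of a member. With the length column of the table, or with the canonical transcript length (chosen after seeing the data), 43 of 45 pairs of members kept their order per kilobase. At this depth the lowest member, TGFBR3, still had 58 counts in its lowest library.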
